A study of Rattus norvegicus with 8 samples.

Results

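Oncofetal genes are genes that fetal liver transcribes, that adult hepatocytes keep low, and that many liver tumours transcribe again. A set of 10 genes, made up of such genes, of Alb as the hepatocyte gene that stays on, and of 2 repressors, was followed in the livers of rats given the fungicide hexachlorobenzene (HCB), the statin atorvastatin, or both. The set holds Afp and Alb, the genes of alpha-fetoprotein and albumin, the repressors Zbtb20 and Zhx2, and Gpc3, Tff3, Sall4, Hmga2, Lin28b and Igf2bp3. Each symbol matched 1 row of the 30562 genes of the count table, and all 10 passed the filter on low counts that kept 16591 genes. The members were selected on their known roles and on their measured levels in the HCB comparisons of these same livers, so their values in those comparisons are a description and carry no test. The comparisons of atorvastatin did not choose the members and were tested.

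Reads per gene were counted in 8 liver libraries, 2 in each of 4 groups, each library from a separate rat. All rats were labelled male Wistar animals of 160 g at the start, and 5 were assigned to a group. The Atorvastatin plus HCB group received both agents. The HCB group received 100 mg/kg by gavage 3 times a week for 30 days, and the Atorvastatin group a stated 5 mg/kg per day in drinking water. The Control group received vehicle, and all rats were killed on day 37. The labels also give a recipe for the drinking water that does not match the stated dose, so the dose of atorvastatin received is uncertain. HCB persists in the environment and is known in rodents for hepatic porphyria and tumours, and atorvastatin inhibits cholesterol synthesis. Assigned reads ranged from 29.4 M to 52.0 M per library.

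The libraries of the Atorvastatin and Control groups did not follow their labels of male rats, and this touches every HCB value below. The genes listed here as Y-linked were summed in CPM (counts scaled to the same normalised library size). The sum was 136 to 218 CPM in the 4 libraries of the Atorvastatin plus HCB and HCB groups, called HCB-labelled below. It was 1.99 to 4.04 CPM in the 4 of the Atorvastatin and Control groups, called unexposed. The sum includes Ddx3y, whose row lies on chromosome 13 and which averaged 1.20 CPM in the HCB-labelled and 1.60 CPM in the unexposed libraries. Cyp2c11, a cytochrome P450 of adult male rat liver, was at 2641 to 4101 CPM in the HCB-labelled and 4.74 to 10.5 CPM in the unexposed libraries. Xist was not analysed here. An effect of HCB therefore cannot be told apart from whatever else separates these rats. Reads outside annotated exons made up 7.46% to 11.4% of the HCB-labelled and 15.3% to 34.0% of the unexposed libraries, and their part in the results was not tested.

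Alpha-fetoprotein is the main serum protein of the fetus, and albumin takes its place after birth. Their genes arose by duplication and lie side by side, are driven in hepatocytes by C/EBP and FOXA factors, and share distal enhancers. In mouse liver, the zinc finger protein Zbtb20 and the homeobox protein Zhx2 lower Afp after birth, while Alb stays on. Return of AFP to the blood is a clinical marker of liver cancer and of liver regeneration.

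The sequences before the starts of Afp, Alb, Gpc3 and Tff3 are shown because Afp and its neighbour Alb stood at very different levels, and because Gpc3 and Tff3 were low in the same libraries as Afp. They are the 250 bases upstream of the annotated start, 5′ to 3′ on the gene's strand, from RefSeq on the GRCr8 build, which is not the build of the counts. Capitals mark the letters GTTAAT or GTTAAC (searched on both strands) and the TATA box (TATAAA, searched on the gene's strand). The regions are chr14:17875646-17875895 for Afp, chr14:17906980-17907229 for Alb, chrX:137157599-137157848 for Gpc3 and chr20:9199334-9199583 for Tff3, all on the minus strand.
Afp: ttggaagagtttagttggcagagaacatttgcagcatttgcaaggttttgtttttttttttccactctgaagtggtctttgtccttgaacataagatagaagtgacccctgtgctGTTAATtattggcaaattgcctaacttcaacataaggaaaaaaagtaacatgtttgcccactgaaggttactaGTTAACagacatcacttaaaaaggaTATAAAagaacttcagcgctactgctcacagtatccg
Alb: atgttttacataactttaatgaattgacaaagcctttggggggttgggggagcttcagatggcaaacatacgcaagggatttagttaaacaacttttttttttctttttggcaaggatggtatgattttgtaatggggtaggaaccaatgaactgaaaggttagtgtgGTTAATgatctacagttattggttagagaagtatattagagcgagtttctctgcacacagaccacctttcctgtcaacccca
Gpc3: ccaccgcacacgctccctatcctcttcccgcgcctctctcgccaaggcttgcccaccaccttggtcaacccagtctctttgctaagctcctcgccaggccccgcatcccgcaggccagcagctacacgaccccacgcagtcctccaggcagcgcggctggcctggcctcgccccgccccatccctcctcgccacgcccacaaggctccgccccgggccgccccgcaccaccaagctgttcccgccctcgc
Tff3: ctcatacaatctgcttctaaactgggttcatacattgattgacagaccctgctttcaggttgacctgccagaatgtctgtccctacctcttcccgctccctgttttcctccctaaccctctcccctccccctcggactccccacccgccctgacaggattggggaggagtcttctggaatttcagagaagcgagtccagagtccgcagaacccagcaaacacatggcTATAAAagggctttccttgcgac

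The Afp sequence held 2 matches to GTTAAT or GTTAAC, beginning 135 and 62 bases before the start, and a TATA box 37 bases before it. Alb held 1 such match, 82 bases before the start, and no match to TATAAA. At least 1 such match was found in 8.61% and the TATA letters in 8.06% of all 33469 promoter windows of the same length. Gpc3 held neither motif, and Tff3 held only the TATA letters, 23 bases before the start. The Afp and Alb sequences each held 2 CpG dinucleotides and were 37.2% and 38.8% G and C, whereas Gpc3 held 22 and was 71.6% G and C. The median over all windows was 5 CpG. A match is a description of the letters and not of binding. In all, 7 of the 10 members had an entry in this table, and Zbtb20, Zhx2 and Sall4 had none.

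Afp (ENSRNOG00000002889, chromosome 14, 17573412 to 17591480 on mRatBN7.2, the build of the counts) was among the most abundant liver transcripts in the unexposed libraries and was low in the HCB-labelled ones. It was at 85.1 and 70.3 CPM in the Atorvastatin plus HCB libraries, 145 and 70.1 CPM in the HCB libraries, 11414 and 24173 CPM in the Atorvastatin libraries, and 11859.9 and 29746 CPM in the Control libraries. The HCB-labelled and unexposed libraries did not overlap, while both Afp levels of the Atorvastatin group lay within or just under those of the Control group. By TPM, a level per gene length scaled to the same total in each library, Afp ranked 736 to 1296 among all genes in the HCB-labelled libraries and 3 to 11 in the unexposed ones. The log2 change was −7.84 ± 0.76 (SE) in Atorvastatin plus HCB over Atorvastatin and −7.59 ± 0.76 in HCB over Control. In whole liver, fewer cells that transcribe a gene and less RNA per cell cannot be told apart, and this holds for every value below.

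Alb (ENSRNOG00000002911, chromosome 14, 17607381 to 17622836) gives the level of a hepatocyte gene that stays on through life. It was at 124965 and 111739 CPM in the Atorvastatin plus HCB libraries, 74850.4 and 92854 CPM in the HCB libraries, 45739.8 and 93538 CPM in the Atorvastatin libraries, and 57170.1 and 100803 CPM in the Control libraries. The groups overlapped, and the replicates of the Atorvastatin group stood far apart, as did those of the Control group. Alb took 6.15% to 9.71% of assigned reads in the HCB-labelled libraries and 6.50% to 10.3% in the unexposed ones, and by TPM it was the most abundant gene in 7 of 8 libraries and ranked 3 in HCB replicate 1. The fitted log2 change was 0.77 ± 0.55 in Atorvastatin plus HCB over Atorvastatin and 0.09 ± 0.55 in HCB over Control. The sign of the HCB over Control value turns with the scale, since mean TPM was 60047 ± 18606 (SD, n = 2) in HCB and 76813 ± 15562 in Control.

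Set against Alb in the same library and per length, Afp was at 0.0894% and 0.0827% of Alb in the Atorvastatin plus HCB libraries, 0.255% and 0.0992% in the HCB libraries, 32.8% and 33.9% in the Atorvastatin libraries, and 27.2% and 38.7% in the Control libraries. This ratio needs no library scaling. It averaged 0.132% ± 0.083 (SD, n = 4) in the HCB-labelled and 33.2% ± 4.73 in the unexposed libraries. In the unexposed libraries there was about 1 Afp transcript for every 2.58 to 3.67 Alb transcripts, and in the HCB-labelled ones 1 for every 392 to 1210.

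**Figure D1:**
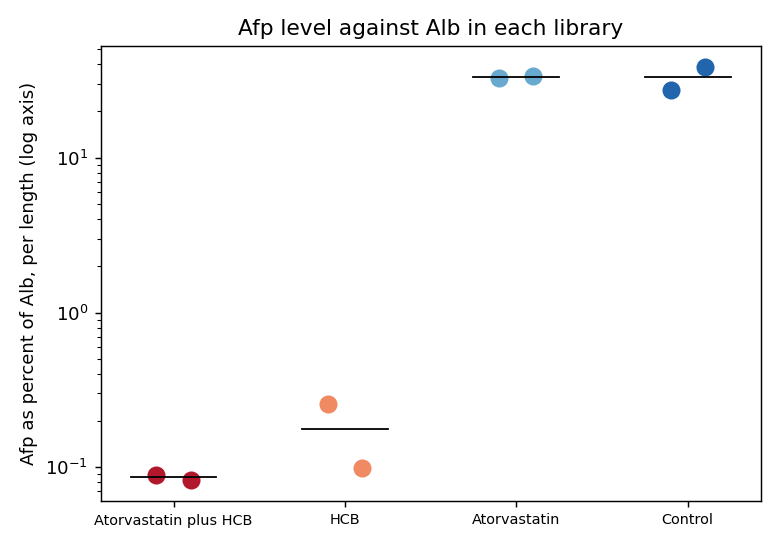
Afp as a percent of Alb per length (log axis) in each of the 8 libraries, with points for libraries and lines for group means of 2. The 4 HCB-labelled libraries lie between 0.0827% and 0.255%, with HCB replicate 1 the highest, and the 4 unexposed libraries between 27.2% and 38.7%.

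The 4 genes of the albumin cluster are transcribed in the same direction, in the order Alb, Afp, Afm and Albfm1, with 15.9 kb between Alb and Afp and 9.54 kb between Afp and Afm. Afm, the gene of the vitamin E binding serum protein afamin, went the other way from Afp. It was at 1861 and 1575 CPM in the Atorvastatin plus HCB libraries, 1443 and 1496 CPM in the HCB libraries, 266 and 648 CPM in the Atorvastatin libraries, and 309 and 562 CPM in the Control libraries. The HCB-labelled libraries were all above the unexposed ones, and Afm rose by 1.91 ± 0.45 in log2 in Atorvastatin plus HCB over Atorvastatin (edgeR adjusted p = 0.0108) and by 1.75 ± 0.45 in HCB over Control (edgeR adjusted p = 0.0159). In HCB over Control it was not called without HCB replicate 1, HCB replicate 2 or Control replicate 1, with an adjusted p of up to 0.138, and in Atorvastatin plus HCB over Atorvastatin it was not called without Atorvastatin plus HCB replicate 1 or Atorvastatin replicate 1, with an adjusted p of up to 0.0613. Albfm1 stayed between 78.5 and 110.2 CPM in all 8 libraries and was not called. Of the 13 genes tested within 500 kb of Afp, 5 were called in each comparison, Afp among them, beside 26.9% of all genes in HCB over Control and 27.6% in Atorvastatin plus HCB over Atorvastatin. A more distant member of the family, Gc, the gene of the vitamin D binding protein, averaged 11059.8 CPM in Atorvastatin plus HCB, 10451 CPM in HCB, 2266 CPM in Atorvastatin and 2599.9 CPM in Control. It rose by 2.29 ± 0.45 in log2 in the first comparison and by 2.01 ± 0.44 in the second (edgeR adjusted p = 0.00411 and 0.00763), where it was not called without Control replicate 1 (adjusted p = 0.0854).

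**Figure D2:**
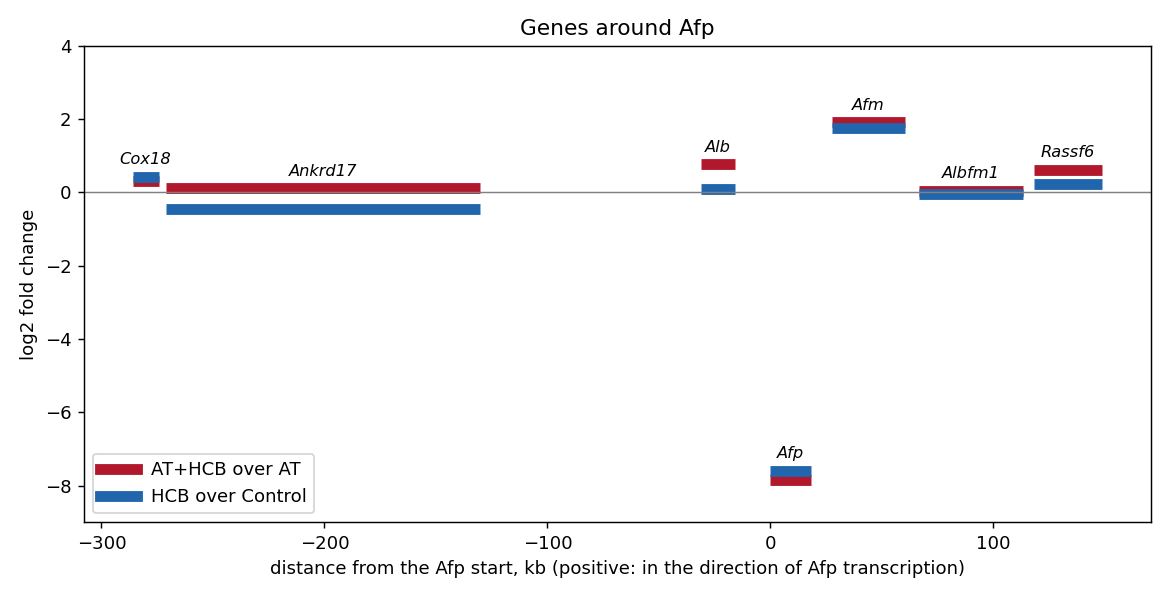
Log2 fold change of the genes around Afp (vertical axis) against their distance from the Afp start in kb, each bar spanning 1 gene, for Atorvastatin plus HCB over Atorvastatin and HCB over Control. Afp stands at −7.84 and −7.59, between Alb at 0.77 and 0.09 and Afm at 1.91 and 1.75.

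Zbtb20 (ENSRNOG00000056716, chromosome 11, 57072880 to 57510210), the zinc finger repressor of Afp, was at 262 and 205 CPM in the Atorvastatin plus HCB libraries, 135 and 215 CPM in the HCB libraries, 70.9 and 75.6 CPM in the Atorvastatin libraries, and 79.3 and 64.4 CPM in the Control libraries. All HCB-labelled libraries were above all unexposed ones on this scale. On the log2 scale the change was 1.67 ± 0.29 in Atorvastatin plus HCB over Atorvastatin and 1.28 ± 0.29 in HCB over Control. On the TPM scale the HCB-labelled and unexposed libraries overlapped, since HCB replicate 1 stood at 20.6 TPM, below Atorvastatin replicate 1 at 22.7 TPM and Control replicate 1 at 22.2 TPM.

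Zhx2 (ENSRNOG00000005417, chromosome 7, 89226463 to 89374378), the homeobox repressor of Afp in mouse, was at 40.4 and 32.8 CPM in the Atorvastatin plus HCB libraries, 24.4 and 37.5 CPM in the HCB libraries, 6.15 and 6.87 CPM in the Atorvastatin libraries, and 6.40 and 7.22 CPM in the Control libraries. The HCB-labelled libraries lay above the unexposed ones on the CPM and the TPM scale. The log2 change was 2.49 ± 0.28 in Atorvastatin plus HCB over Atorvastatin and 2.18 ± 0.28 in HCB over Control. Per length, Zbtb20 was 3.83 to 4.48 times Zhx2 in the HCB-labelled and 6.16 to 8.57 times Zhx2 in the unexposed libraries, so Zhx2 made up more of the pair where Afp was low.

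Within the HCB-labelled libraries, HCB replicate 1 had the highest Afp and the lowest Zbtb20 and Zhx2, but the others did not follow that order. Atorvastatin plus HCB replicate 1 had the highest Zbtb20 and Zhx2, at 262 and 40.4 CPM. Its Afp of 85.1 CPM was above that of Atorvastatin plus HCB replicate 2 and HCB replicate 2, at 70.3 and 70.1 CPM. Within the unexposed libraries there was no such order for Zhx2, since Control replicate 2 had the highest Afp and also the highest Zhx2, at 7.22 CPM. That library had the lowest Zbtb20, at 64.4 CPM. Atorvastatin replicate 1 had the lowest Afp, yet its Zbtb20 of 70.9 CPM was below that of Atorvastatin replicate 2 and Control replicate 1, at 75.6 and 79.3 CPM. No correlation is given, because the 8 libraries fall into separate clusters of 4.

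**Figure D3:**
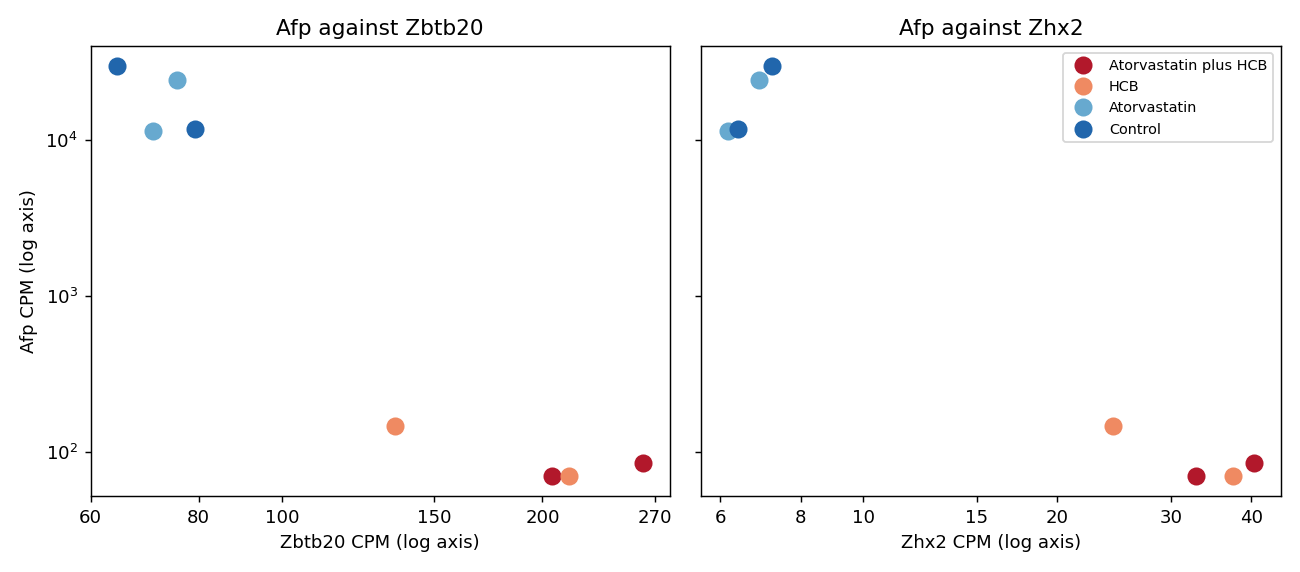
Afp level (CPM, vertical log axis) against Zbtb20 and Zhx2 (CPM, horizontal log axes), with 1 point per library coloured by group. The HCB-labelled libraries sit at 70.1 to 145 CPM of Afp with 135 to 262 CPM of Zbtb20, and the unexposed ones at 11414 to 29746 CPM of Afp with 64.4 to 79.3 CPM of Zbtb20.

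Gpc3 (ENSRNOG00000060179, chromosome X, 131868990 to 132236798) encodes glypican 3, a heparan sulfate proteoglycan of the cell surface that is a tissue marker of hepatocellular carcinoma and, in mouse liver, another target of Zhx2. It was at 1.25 and 3.28 CPM in the Atorvastatin plus HCB libraries, 3.29 and 1.39 CPM in the HCB libraries, 24.2 and 67.4 CPM in the Atorvastatin libraries, and 25.04 and 41.8 CPM in the Control libraries. The HCB-labelled and unexposed libraries did not overlap. In log2, the change was −4.33 ± 0.67 in Atorvastatin plus HCB over Atorvastatin and −3.84 ± 0.66 in HCB over Control.

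Tff3 (ENSRNOG00000001159, chromosome 20, 9193262 to 9198054) encodes trefoil factor 3, a small secreted peptide of mucous epithelia. It was at 0.251 and 0.0450 CPM in the Atorvastatin plus HCB libraries, 0.0633 and 0 CPM in the HCB libraries, 11.5 and 15.1 CPM in the Atorvastatin libraries, and 13.4 and 16.1 CPM in the Control libraries. The HCB libraries together held 2 reads of Tff3, against 1209 in the Control libraries, a ratio of 512 in favour of Control with a 95% interval of 91.5 to 20246 that covers counting error only. The Atorvastatin plus HCB libraries held 12 reads, against 1207 in the Atorvastatin libraries, with a log2 change of −6.50 ± 0.59.

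Sall4 (ENSRNOG00000050035, chromosome 3, 157474642 to 157490822), a zinc finger factor of embryonic stem cells and fetal liver, was at 0.251 and 0.0450 CPM in the Atorvastatin plus HCB libraries, 0.190 and 0.214 CPM in the HCB libraries, 7.04 and 3.70 CPM in the Atorvastatin libraries, and 6.20 and 3.22 CPM in the Control libraries. No HCB-labelled library held more than 10 reads, and the unexposed libraries held 136 to 294. The log2 change was −5.18 ± 0.71 in Atorvastatin plus HCB over Atorvastatin and −4.52 ± 0.69 in HCB over Control. The unexposed libraries differed among themselves, at 7.54 and 3.00 TPM in Atorvastatin and 5.80 and 2.28 TPM in Control.

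The RNA-binding protein Lin28b blocks maturation of the let-7 microRNAs, which in turn repress Hmga2, a chromatin protein, and the RNA-binding proteins of the Igf2bp family. Hmga2 (ENSRNOG00000042460, chromosome 7, 55880112 to 55994784) had 0 and 0 reads in the Atorvastatin plus HCB libraries, 0 and 2 in the HCB libraries, 23 and 46 in the Atorvastatin libraries, and 38 and 10 in the Control libraries. With a floor of 6 reads (3 read pairs) over a group in place of 0, it was 10.8-fold lower in Atorvastatin plus HCB than in Atorvastatin. That ratio includes no counting error. For HCB against Control the ratio was 20.3 in favour of Control, with a 95% interval of 3.31 to 835. Lin28b (ENSRNOG00000025938, chromosome 20, 48869485 to 48955077) had 4 and 0 reads in the Atorvastatin plus HCB libraries, none in the HCB libraries, 8 and 8 in the Atorvastatin libraries, and 4 and 10 in the Control libraries. These are too few for a ranking, since Atorvastatin plus HCB replicate 1 and Control replicate 1 both held 4 reads. With the same floor in place of 0, Lin28b was 1.97-fold lower in HCB than in Control, again without counting error, and it was not called. The ratio of Atorvastatin over Atorvastatin plus HCB was 3.75, with a 95% interval of 0.749 to 36.3 that includes no difference.

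Igf2bp3 (ENSRNOG00000009052, chromosome 4, 78060494 to 78194865), an RNA-binding protein of fetal tissues, was at 93.6 and 97.8 CPM in the Atorvastatin plus HCB libraries, 100.4 and 116 CPM in the HCB libraries, 142 and 129 CPM in the Atorvastatin libraries, and 136 and 136 CPM in the Control libraries. It was well above trace level in every library, and the HCB-labelled libraries were below the unexposed ones without overlap. By TPM it averaged 44.1 ± 4.69 in Atorvastatin plus HCB, 48.0 ± 12.6 in HCB, 98.3 ± 25.9 in Atorvastatin and 85.5 ± 16.9 in Control (SD, n = 2 each), a wider gap than by CPM. The fitted log2 change was −0.50 ± 0.22 in Atorvastatin plus HCB over Atorvastatin and −0.33 ± 0.22 in HCB over Control, and it was called in neither.

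**Figure D4:**
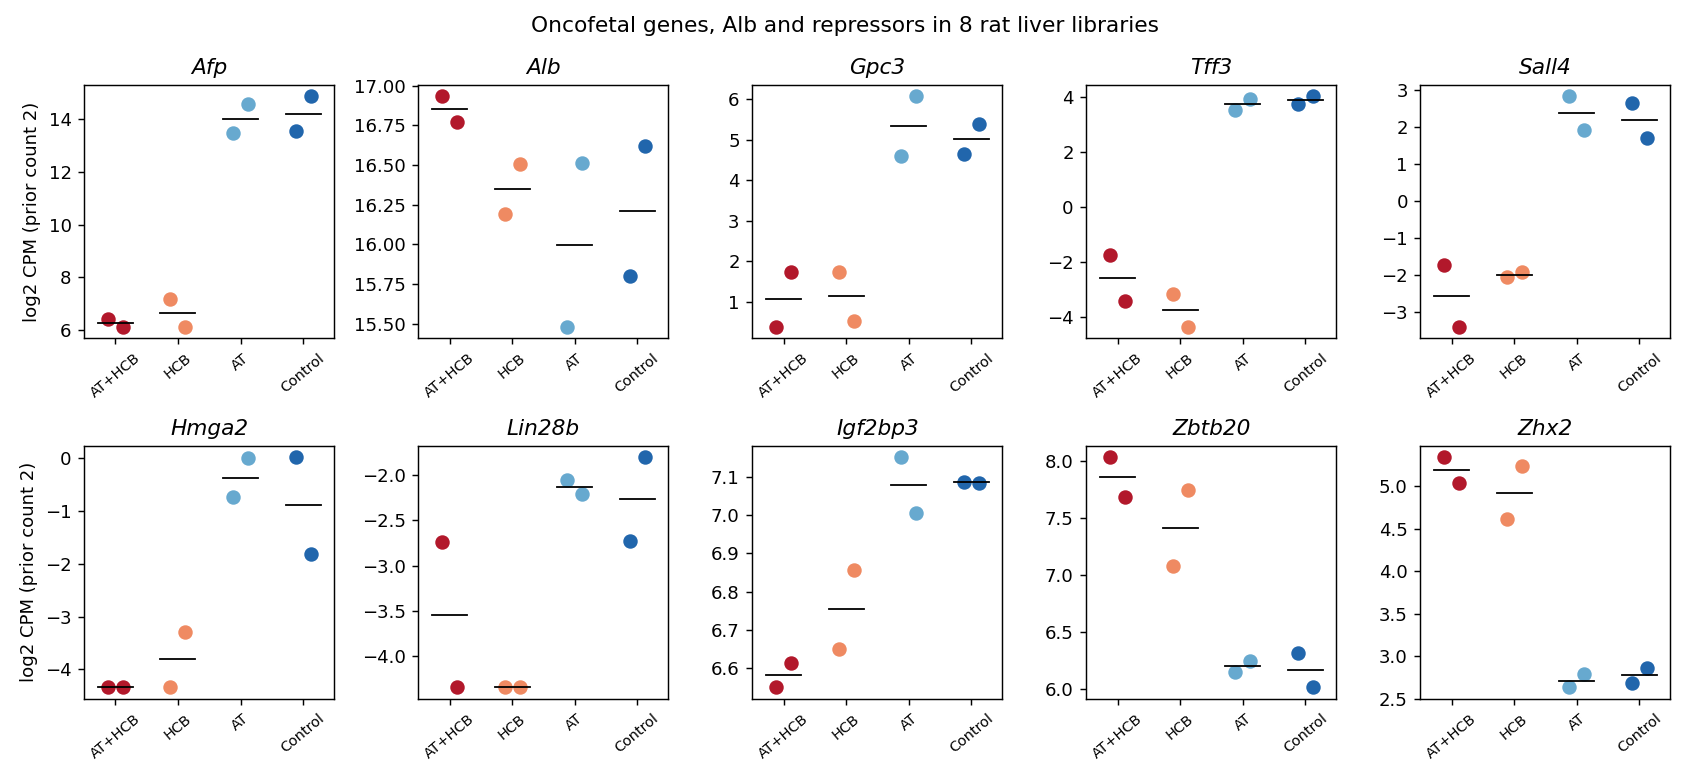
Level of each of the 10 genes in log2 CPM (vertical axes, a scale of its own in each panel, prior count 2) in the 4 groups, with points for libraries and lines for means of 2. Afp, Gpc3, Tff3, Sall4 and Hmga2 are lower in all 4 HCB-labelled than in all 4 unexposed libraries, Zbtb20 and Zhx2 are higher, and Alb overlaps.

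Side by side, 2 of the 10 members were called higher (Zbtb20 and Zhx2) and 5 lower (Afp, Gpc3, Tff3, Sall4 and Hmga2) in each HCB comparison by edgeR's quasi-likelihood test at an adjusted p of 0.05. The background was 26.9% of genes called in HCB over Control and 27.6% in Atorvastatin plus HCB over Atorvastatin, and nothing is read from the members' count because these comparisons chose them. Over the 8 libraries, CPM did not overlap between HCB-labelled and unexposed libraries for Zbtb20 and Zhx2, which were higher, and for every other member except Alb, which were lower, beside 21.8% of all genes higher and 25% lower without overlap. For Lin28b that gap is 0.100 against 0.102 CPM at its edge, from equal reads. The HCB effects in the presence and absence of atorvastatin share no library. The number called higher in HCB over Control was 1 without Control replicate 2, where Zbtb20 was not called. Hmga2 was not called in HCB over Control without HCB replicate 1, HCB replicate 2 or Control replicate 1, nor in Atorvastatin plus HCB over Atorvastatin without Atorvastatin plus HCB replicate 1. It was also not called in HCB over Control without both libraries with most reads outside exons, Control replicate 1 and Atorvastatin replicate 1 (adjusted p = 0.296).

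The scaling of libraries bears on the repressors and Igf2bp3 more than on Afp. With total reads in place of normalised library sizes, the median of all genes moved by −0.62 on the log2 scale in Atorvastatin plus HCB over Atorvastatin and by −0.43 in HCB over Control. On that scale Zbtb20 had log2 changes of 1.04 ± 0.32 and 0.84 ± 0.32 and was not called in the second, and Zhx2 had 1.87 ± 0.33 and 1.77 ± 0.32. Igf2bp3 had −1.14 ± 0.28 and was called lower in Atorvastatin plus HCB over Atorvastatin, so that 6 members were lower there, and −0.76 ± 0.28 in HCB over Control, where it was not called. Afp had −8.40 ± 0.54 and −7.96 ± 0.53. Alb had 0.20 ± 0.31 and −0.29 ± 0.31, so its direction in HCB over Control turned. The share of called genes that were higher was 14.9% in place of 45.6% in the first comparison and 24.1% in place of 48.5% in the second.

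**Figure D5:**
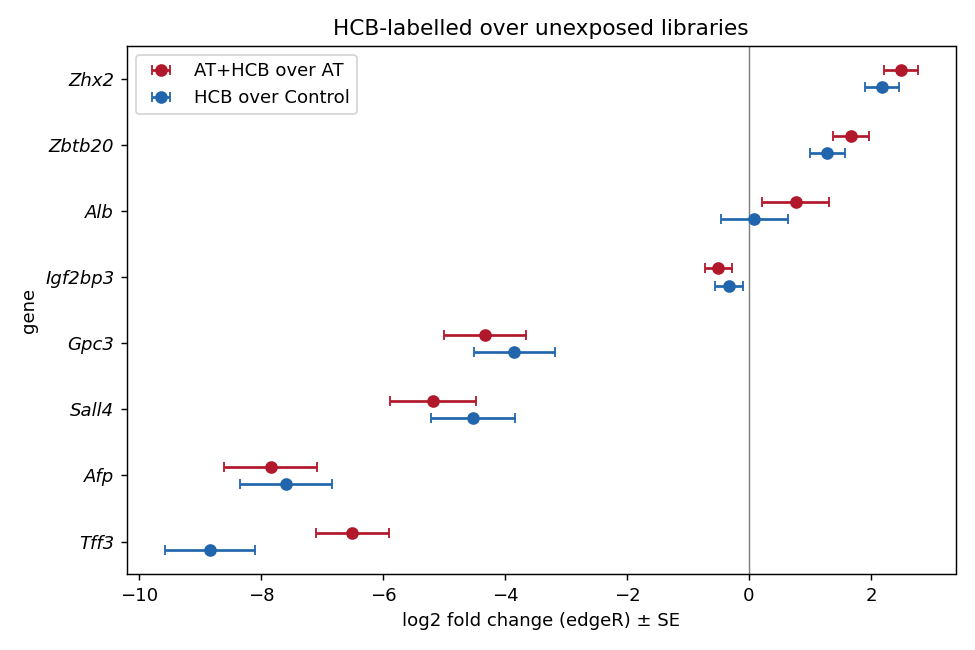
Log2 fold change ± SE (horizontal axis) of the 8 members with enough reads in all groups or in the higher ones, for Atorvastatin plus HCB over Atorvastatin and HCB over Control. Both comparisons put Zhx2 and Zbtb20 above 0, at 1.28 to 2.49, and Gpc3, Sall4, Afp and Tff3 at −3.84 or below.

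Other genes of fetal liver were lower in the same libraries. The gene lists and the rule for naming genes, Afm and Gc above included, were chosen with earlier results of these data known. Their counts and p values in the HCB comparisons are therefore a description and no independent test. Values given in pairs below are for the comparisons Atorvastatin plus HCB over Atorvastatin and HCB over Control. Of 13 tested, 10 fell in Atorvastatin plus HCB over Atorvastatin and none rose, and 10 fell and 1 rose in HCB over Control, beside backgrounds of 15% and 13.9% of genes called lower. With each library left out in turn, the number that fell was 10 in the first comparison and 9 to 10 in the second, and the number that rose in the first was 1 without Atorvastatin replicate 2. The median log2 change of the list was −4.28 and −4.45, against −0.11 and −0.09 over all genes tested. Igf2, the fetal growth factor, averaged 26.7 CPM in Atorvastatin plus HCB, 52.9 CPM in HCB, 7935 CPM in Atorvastatin and 8218 CPM in Control. H19, the imprinted RNA beside it, fell, with log2 changes of −8.30 ± 0.60 and −7.57 ± 0.58 (edgeR adjusted p = 7.96e-06 and 1.17e-05). Dlk1, a surface protein of hepatoblasts, fell, with log2 changes of −6.35 ± 0.60 and −6.57 ± 0.61 (edgeR adjusted p = 5.29e-05 and 4.12e-05). Dlk1 was at 0.0501 to 0.127 CPM in the HCB-labelled and 5.43 to 11.8 CPM in the unexposed libraries, so the size of its fall rests on few reads. Mest and Bex1 were also among the 10. Ahsg, the gene of the serum protein fetuin-A, was not called, with log2 changes of −0.77 ± 0.46 and −1.03 ± 0.46. Epcam, an adhesion molecule of progenitor and bile duct cells, was the gene that rose in HCB over Control (1.10 ± 0.35, edgeR adjusted p = 0.0396), and it was not called without either Atorvastatin plus HCB library, HCB replicate 1 or either Control library, where the count of genes that rose was 0. Of the further targets of Zhx2 in mouse liver, H19 and Lpl, the gene of lipoprotein lipase, were tested and both fell, Lpl with log2 changes of −4.33 ± 0.62 and −4.52 ± 0.63 (edgeR adjusted p = 0.001 and 0.0008).

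The LIN28, let-7 and HMGA pathway had 18 further genes tested, of which 9 fell and none rose in each HCB comparison. The background was 15% and 13.9% of all genes called lower. The number that fell was 6 to 10 when each library was left out in turn, and 10 and 11 with total reads. Without either HCB library, 1 rose in Atorvastatin plus HCB over Atorvastatin. Of the paralogs of Igf2bp3, Igf2bp1 was at 0.0251 ± 0.035 CPM in Atorvastatin plus HCB, 0.0851 ± 0.031 CPM in HCB, 6.64 ± 0.53 CPM in Atorvastatin and 7.99 ± 0.46 CPM in Control (SD, n = 2 each). Igf2bp2 fell, with log2 changes of −5.18 ± 0.33 and −5.00 ± 0.33 (edgeR adjusted p = 3.23e-06 and 4.01e-06). Hmga1, the paralog of Hmga2, fell, with log2 changes of −1.59 ± 0.27 and −1.70 ± 0.27 (edgeR adjusted p = 0.00177 and 0.00124). The transcription factor Arid3a fell, with log2 changes of −3.98 ± 0.35 and −4.19 ± 0.36 (edgeR adjusted p = 3.1e-05 and 2.58e-05). Lin28a, the paralog of Lin28b, averaged 0.398 CPM or less in every group and was not called. None of the enzymes that cut, mark or degrade let-7 precursors and were tested here, Drosha, Dicer1, Tut4, Tut7 and Dis3l2, was called, with log2 changes of −0.56 to 0.69. Tut7, which adds uridine to such precursors, was at 170 to 211 CPM in the HCB-labelled and 128 to 166 CPM in the unexposed libraries without overlap. Dicer1 went the other way without overlap, at 54.7 to 95.1 CPM against 101 to 113 CPM. Of all genes, 21.8% were higher and 25% lower without overlap. Tut7 had log2 changes of 0.69 ± 0.24 and 0.31 ± 0.24 (edgeR adjusted p = 0.0555 and 0.364) that were 0.064 ± 0.29 and −0.14 ± 0.29 with total reads.

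Paralogs of the other members moved unevenly, beside backgrounds of 15% and 13.9% of all genes called lower. Of 4 other glypicans tested, 2 fell in Atorvastatin plus HCB over Atorvastatin and 1 in HCB over Control. Gpc6 fell, with log2 changes of −3.43 ± 0.35 and −3.86 ± 0.36 (edgeR adjusted p = 7.48e-05 and 4.37e-05), Gpc1 only in the first (−3.29 ± 0.67, edgeR adjusted p = 0.00509, against −0.71 ± 0.62 in the second, with edgeR adjusted p = 1.00 for the interaction). Gpc4 averaged 84.1, 69.8, 56.6 and 53.5 CPM in the Atorvastatin plus HCB, HCB, Atorvastatin and Control groups and was not called. Of 5 SALL and pluripotency genes tested, 1 fell in Atorvastatin plus HCB over Atorvastatin and 2 in HCB over Control. The first count was 0 without Atorvastatin plus HCB replicate 2 or Atorvastatin replicate 1, and 2 without either HCB library. Sall1 was at 54.5, 50.2, 58.2 and 53.1 CPM in the 4 groups and was not called, and Sall2 fell in HCB over Control (−2.22 ± 0.50, edgeR adjusted p = 0.00816). The DNA methyltransferase Dnmt3b fell in the same comparison (−1.62 ± 0.32, edgeR adjusted p = 0.00427). Among trefoil and mucus genes, Tff2 was at 0 in all 8 libraries, and 1 of 3 tested, the mucin Muc2, fell in each comparison, with 0 reads in all HCB-labelled libraries and a mean under 1 CPM in the unexposed groups. The fall of Muc2 was not called in HCB over Control without any 1 of the HCB, Atorvastatin and Control libraries, nor in the other without either Atorvastatin plus HCB library.

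Further regulators of the Afp promoter and enhancers moved in both directions. Of 17 tested, 4 rose and 1 fell in Atorvastatin plus HCB over Atorvastatin and 2 rose and 2 fell in HCB over Control, beside backgrounds of 12.6% and 13% of genes called higher and 15% and 13.9% called lower. Cebpb, a liver activator, rose by 0.98 ± 0.26 and by 1.43 ± 0.26 (edgeR adjusted p = 0.0178 and 0.00283), and Hnf4a, a nuclear receptor of hepatocytes, by 0.94 ± 0.31 in both (edgeR adjusted p = 0.042 and 0.0435). Nr2f2, an orphan nuclear receptor, fell, with log2 changes of −0.61 ± 0.21 and −0.81 ± 0.21 (edgeR adjusted p = 0.0492 and 0.0155). Nr2f1, its relative, fell in HCB over Control (−1.17 ± 0.37, edgeR adjusted p = 0.0385), where it was not called without either Atorvastatin plus HCB library, HCB replicate 1 or either Control library. Zhx1, a relative of Zhx2, rose only in the first comparison (0.81 ± 0.20, edgeR adjusted p = 0.0137, against 0.60 ± 0.20 in the second, with edgeR adjusted p = 1.00 for the interaction), while Zhx3 and Zfhx3 were not called in either. These counts were unsteady. Nr2f2 was not called in HCB over Control without either Control library, and in the other comparison in 6 of 8 refits. Cebpb and Zhx1 were each not called in Atorvastatin plus HCB over Atorvastatin without either Atorvastatin plus HCB library, Cebpb also without Atorvastatin replicate 2 and Zhx1 without Atorvastatin replicate 1. In Atorvastatin plus HCB over Atorvastatin the number that rose was 0 without Atorvastatin plus HCB replicate 1, 1 without Atorvastatin plus HCB replicate 2 or Atorvastatin replicate 2, and 2 without Atorvastatin replicate 1. In HCB over Control it was 4 without HCB replicate 1 and 1 without either Atorvastatin plus HCB library, HCB replicate 2 or either Control library. The number that fell ranged from 0 to 3 in HCB over Control, with 0 without either Control library and 1 without either Atorvastatin plus HCB library or HCB replicate 1. It was 0 in the other comparison without Atorvastatin plus HCB replicate 2 or any 1 of the Atorvastatin and Control libraries. With total reads as the scale, none rose in either comparison.

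The genes whose pattern over the 8 libraries was most like that of Afp, by the root mean square difference of centred log2 CPM among named genes with a mean of at least 10 CPM, were Mogat3, Igf2, Igfbp2, H19 and A2m, at 0.47 to 0.64 log2 units. Igfbp2 encodes a binding protein for insulin-like growth factors and A2m alpha-2-macroglobulin, a plasma protease inhibitor that is high in fetal rats. For Zbtb20 the nearest were Mavs, C2cd2, Sardh, Wwp1 and Nags, at 0.10 to 0.16, and for Zhx2 they were Kiaa0040, Cat, Ldhd and Oplah, at 0.14 to 0.18. Cat, the gene of the peroxisomal enzyme catalase, was at 4173 and 4274 CPM in the Atorvastatin plus HCB libraries, 2959 and 4169 CPM in the HCB libraries, 643 and 920.2 CPM in the Atorvastatin libraries, and 788 and 1002 CPM in the Control libraries. As with Zhx2, HCB replicate 1 was the lowest of the HCB-labelled libraries. For Alb the nearest were Ndufs1, Ssb, Cfb and Rsu1, at 0.12 to 0.15, and like Alb they were lowest in Atorvastatin replicate 1.

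Markers of erythroid cells, neutrophils and dividing cells, some of which fetal liver holds, moved with these genes. Other cell types gave mixed values, which are listed last. Of all genes, 15% and 13.9% were called lower and 12.6% and 13% higher in the 2 HCB comparisons. All 10 erythroid markers were lower in both HCB comparisons (6 of 10 in HCB over Control without Control replicate 2), with a summed level of 299 to 1305 CPM in the HCB-labelled and 1950 to 5105 CPM in the unexposed libraries. Of 8 neutrophil granule markers tested, 7 fell in both comparisons, with summed levels of 0.401 to 3.42 and 130 to 222 CPM. The neutrophil protease gene Ctsg was at 0 in all 4 HCB-labelled libraries. All 10 markers of dividing cells fell in both, with summed levels of 18.7 to 49.8 and 235 to 581 CPM, and Mki67, the proliferation antigen, fell, with log2 changes of −3.48 ± 0.59 and −4.29 ± 0.61 (edgeR adjusted p = 0.00243 and 0.000926). Of 15 adult hepatocyte genes, 6 rose and 1 fell in Atorvastatin plus HCB over Atorvastatin and 7 rose and 2 fell in HCB over Control. The number that fell in HCB over Control was 1 without either HCB library or Control replicate 2. The number that rose was 3 without either Atorvastatin plus HCB library and 2 without Atorvastatin replicate 1 in the first, and 3 without HCB replicate 1 or Control replicate 1 in the second. The part of these markers in the members' values was not tested.

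Atorvastatin, given alone or with HCB, was compared with its absence to ask whether the statin moved these genes. None of the 10 members was called in Atorvastatin plus HCB over HCB, in Atorvastatin over Control, in the average of both, or in the interaction of HCB with atorvastatin. By edgeR 0 of 16591 genes, 0%, were called in any of these comparisons. At an unadjusted p under 0.05 there were 857, 181, 601 and 391 genes in that order, and DESeq2 called 47, 3, 12 and 5. Averaged over both comparisons, the log2 change was −0.35 ± 0.40 for Afp, 0.16 ± 0.39 for Alb, 0.22 ± 0.20 for Zbtb20 and 0.09 ± 0.19 for Zhx2 (edgeR adjusted p from 0.99 to 0.996). The other members lay between −1.51 ± 1.17 for Hmga2 and 2.07 ± 1.42 for Lin28b, both of which rest on few reads.

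With HCB present, Afp had a log2 change of −0.47 ± 0.57 with atorvastatin over without (edgeR adjusted p = 0.917), and without HCB of −0.23 ± 0.57 (edgeR adjusted p = 1). The intervals around these values are wide, and a p that misses the threshold does not show that atorvastatin left Afp as it was. The difference between the HCB effects with and without atorvastatin was −0.25 ± 0.80 for Afp, 0.68 ± 0.78 for Alb, 0.39 ± 0.40 for Zbtb20 and 0.31 ± 0.38 for Zhx2 (edgeR adjusted p = 1.00 for each). The direction for Afp turned in the average without Control replicate 2, where it was 0.061.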

How the data were processed

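RNA was measured in 8 libraries. The deposited table holds whole-number counts of reads per gene. Per the file headers, the authors counted over exons with featureCounts 2.0.6 on the mRatBN7.2 build with Ensembl release 111 and no strand option. Trimming used fastp 0.23.4 and alignment STAR 2.7.10b, per the submitters' processing notes. Mates appear to have been counted singly, so floors are 6 reads, or 3 pairs, and intervals cover counting error only. No annotated exon of another gene overlaps those of the members. Gene lengths for TPM are those of the deposited table.

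Counts were tested with edgeR 4.0.16 in R 4.3.3: TMM normalisation, filterByExpr, 1 quasi-likelihood model of 4 groups with 4 residual degrees of freedom, and Benjamini-Hochberg adjustment over 16591 genes with a threshold of 0.05. The common biological coefficient of variation was 0.295, and 2 libraries a group limit precision. All comparisons share 1 estimate of the spread, and those of HCB over Control and of Atorvastatin over Control share the Control libraries. The edgeR fit was tested on simulated counts with known changes in HCB over Control, and the other steps were not simulated. The members, the gene lists and the rule for naming genes were chosen with earlier results of these data known. The rule named the members, a fixed group of relatives, the genes with the smallest p of each list (up to 3 past the threshold in HCB over Control) and the 5 genes most like each of Afp, Alb, Zbtb20 and Zhx2, some of which are not reported here. Further list genes that are named were chosen after their values were seen. Listed symbols without a row (Hbb-bh1, Krt19, Zfy, Xist) were not analysed here.

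Each result was recomputed with DESeq2 1.42.0, with DESeq2 size factors in place of TMM, without the filter and with one of 1 CPM in 2 libraries, without robust estimation, with replicate number as a block, in fits of only the groups compared, and leaving out 1 library at a time. Added after seeing the data were halving the counts, scaling by total reads without TMM factors, and dropping Control replicate 1 and Atorvastatin replicate 1, which had most reads outside exons. Promoters are RefSeq sequences on GRCr8. Figures were drawn with matplotlib 3.10.9.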

Additional observations from a re-analysis of the deposited data

Results flagged for a closer look

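In 22 sets of 4 libraries, HCB-labelled or unexposed, 3 held a library whose gap to its nearest neighbour took up most of the range. The cutoff is meant to flag about 1 in 20 sets of normally distributed values. That rate cannot judge Hmga2 and Lin28b, because a set with reads in only 1 library is flagged whatever their number. No excess is read from the 3 flags. Afp as a percent of Alb per length was 0.255% in HCB replicate 1, above 0.0827% to 0.0992% in the other HCB-labelled libraries. Hmga2 was at 0.0534 CPM in HCB replicate 2, from 2 reads, with 0 reads in the other HCB-labelled libraries. Lin28b was at 0.100 CPM in Atorvastatin plus HCB replicate 1, from 4 reads, with 0 in the others.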

How the results depend on the processing

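With 4466 genes called in HCB over Control, the count was 2164 to 4622 with each library left out in turn and 2108 without both libraries with most reads outside exons. With 4571 called in Atorvastatin plus HCB over Atorvastatin, these were 1902 to 4819 and 2147. The counts of 0 became 3 by DESeq2, 76 with no filter and 0 to 33 with a library left out in Atorvastatin over Control, 47, 179 and 0 to 6 in Atorvastatin plus HCB over HCB, 12, 140 and 0 to 9 in the average effect, and 5, 70 and 0 to 5 in the interaction. The cause was not tested. With replicate number as a block, 4282, 4398 and, in each atorvastatin comparison, 0 genes were called, and Hmga2 was not called in HCB over Control (adjusted p = 0.0576). Deviations of replicate 1 from its group mean correlated at −0.051 to 0.269 between groups, highest for Atorvastatin with Control. Atorvastatin replicate 1 and Control replicate 1 correlated at 0.978, against 0.960 and 0.970 with replicate 2 of their own group. What the replicate numbers stand for was not tested.

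By reads without length, Afp was 0.0655% of Alb in Atorvastatin plus HCB and 25.4% in Atorvastatin. Directions that turned belonged to values not called. With a library left out, Afp ranged from −0.87 to 0.59 in Atorvastatin over Control, −0.90 to 0.15 in Atorvastatin plus HCB over HCB, −0.67 to 0.061 in the average effect and −1.06 to 0.41 in the interaction. Alb ranged from −0.80 to 0.29 in Atorvastatin over Control and −0.15 to 0.40 in the average effect, Zbtb20 from −0.11 to 0.18 in Atorvastatin over Control. Zhx2 ranged from −0.15 to 0.028 in Atorvastatin over Control (0.061 with total reads), −0.03 to 0.59 in Atorvastatin plus HCB over HCB and −0.047 to 0.26 in the average effect. In the average effect Gpc3 ranged from −0.25 to 0.59, Sall4 from −0.95 to 0.25 and Hmga2 from −1.96 to 0.17. In Atorvastatin plus HCB over Atorvastatin, Sall1 ranged from −0.65 to 0.36 (0.24 without both libraries with most reads outside exons), and Zfhx3 and Gpc4 were at −0.43 and −0.028 with total reads. In HCB over Control, Sall1 ranged from −0.89 to 0.46 and Zfhx3 from −0.82 to 0.23, and Gpc4 was at −0.00058 with total reads. With 2 libraries a group, small changes were not detectable, and Hmga2 and Lin28b rest on few reads.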

Other observations

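Markers of further cell types gave mixed values. In Atorvastatin plus HCB over Atorvastatin 12.6% of all genes were called higher and 15% lower. In HCB over Control these shares were 13% and 13.9%. Of 4 visceral endoderm markers, 1 rose in each HCB comparison, the endocytic receptor Lrp2 (3.23 and 2.97 in log2). Their summed level, 69.5 to 112 CPM in the HCB-labelled and 12.4 to 21.3 CPM in the unexposed libraries, was mostly Lrp2, which averaged 80.5 and 9.28 CPM. The other 3 were not called and had lower means in the HCB-labelled libraries, with 1.11 and 3.12 CPM for Cubn, 2.87 and 4.46 CPM for Sox17 and 0.0743 and 0.237 CPM for Rhox5. The list's median log2 change was −0.91 and −0.89, and with total reads 1 and 2 members fell. Of 8 biliary and progenitor markers, 3 fell in each comparison and 2 rose in HCB over Control (0 without Control replicate 2 and 1 without either Atorvastatin plus HCB library, HCB replicate 1 or Control replicate 1). Sox9, a transcription factor of bile duct cells, fell by 1.65 and by 2.52, while the summed level was 46.5 to 49.6 CPM in the HCB-labelled and 45.1 to 56.7 CPM in the unexposed libraries. Of 9 mesenchymal markers, 6 fell in Atorvastatin plus HCB over Atorvastatin (0 without Atorvastatin plus HCB replicate 1, 3 without Atorvastatin plus HCB replicate 2 or Atorvastatin replicate 2) and 3 in HCB over Control (1 without any 1 of the HCB and Control libraries, 6 without either Atorvastatin library). With total reads, 8 mesenchymal markers fell in the first of these comparisons and 6 in the second. Of 7 macrophage markers, 2 rose in each comparison and 1 fell in HCB over Control (Marco, a scavenger receptor, −1.79). With total reads 1 rose and 1 fell in Atorvastatin plus HCB over Atorvastatin, and 1 rose and 3 fell in HCB over Control. Leaving out a library changed the macrophage counts as well, to 1 risen without either HCB library or Control replicate 1 in HCB over Control and without Atorvastatin plus HCB replicate 2 or Atorvastatin replicate 1 in the other. The fall was not called without either HCB library, Atorvastatin replicate 2 or either Control library, and 1 fell in the other comparison without Atorvastatin plus HCB replicate 2. Of 6 endothelial markers 1 rose and 1 fell in each, and none fell without either Atorvastatin plus HCB library or Atorvastatin replicate 2 in Atorvastatin plus HCB over Atorvastatin. With total reads 1 endothelial marker rose and 3 fell in HCB over Control.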
